A study of Mus musculus with 7 samples.

Results

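The circadian clock of mammalian cells is a feedback loop of transcription factors. ARNTL (also called BMAL1) and CLOCK pair on E-box elements and switch on the genes of their own repressors, the PER and CRY proteins, together with the REV-ERB receptors NR1D1 and NR1D2 and output factors such as DBP. The REV-ERB receptors in turn repress Arntl through ROR elements, and immune cells of the spleen carry this loop. The 10 genes described here are Arntl and Clock (activators), Per1, Per2, Per3, Cry1 and Cry2 (repressors), Nr1d1 and Nr1d2 (REV-ERB receptors) and Dbp (output). They were chosen by gene symbol and all 10 were found among the 17920 genes of the deposited table.

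RNA came from whole spleen, collected and mashed on ice, of C57BL/6 mice aged 8 weeks, each injected intraperitoneally with lipopolysaccharide (LPS), a bacterial cell wall component, at 20 mg/kg. Of the 7 libraries, 4 are of wild type, with 2 at 90 min and 2 at 6 h, and 3 of GdX-deficient spleen, with 2 at 90 min and 1 at 6 h. GdX (UBL4A) is a small ubiquitin-like protein encoded on the X chromosome by Ubl4a, and the deficient animals are labelled GdX-/- and, in the treatment text, GdX-/Y. Every group received LPS and no untreated spleen was analysed, so no level can be set against one before LPS. The time of day of injection or collection is not given in the sources used here, so hours after LPS and hours on the daily clock cannot be told apart. Nothing says how the allele was made or whether the genotypes were littermates, and p-values measure only the spread between these libraries.

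Depth, read from the steps between low values, was about 19000000 to 20800000 fragments per library. Ubl4a itself stood at 4.03 to 10.56 FPKM (fragments divided by transcript length in kilobases and by the library's mapped total) in the 3 GdX-deficient libraries and 5.62 to 14.01 FPKM in the 4 of wild type. Gm44504, which overlaps it, stood at 0.66 to 1.86 FPKM and at 14.52 to 51.1 FPKM. The Ubl4a level of the GdX-deficient groups was 0.741 of wild type at 90 min and 0.816 at 6 h with overlapping ranges over all libraries, so it does not by itself bear out the genotype, and which bases the allele lacks is not given in the sources used here. GdX-deficient is used below as the labels give it. Markers of B and T cells, the main cells of the spleen, were present in every library. The sum of 5 B-cell markers was lower in both wild-type libraries at 6 h (362.5 and 400 FPKM) than in the other 5 libraries (1067.7 to 1886.3 FPKM). T-cell markers also summed lower there (116.1 and 90.6 FPKM against 187.5 to 264.6 FPKM). In whole spleen, fewer cells of a type and less RNA per cell cannot be told apart.

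Of the 10 clock genes, 9 had a mean of at least 1 FPKM and were tested. Per3 (mean 0.559 FPKM) was not. Mean levels over the 7 libraries ran, per length, from Per1 (8.58 FPKM) through Nr1d2 (6.91), Cry1 (6.63), Arntl (4.44), Dbp (4.27), Cry2 (2.85), Clock (2.58), Nr1d1 (1.46) and Per2 (1.42) to Per3. This order pools groups of unequal size and was not the same in each: the mean of Arntl in wild type at 6 h (2.20 FPKM) lay below those of Dbp (5.80), Cry2 (4.40) and Nr1d1 (2.45), and in wild type at 90 min Cry1 (5.56) lay above Nr1d2 (4.98), Clock (2.28) above Cry2 (1.74) and Per2 (1.02) above Nr1d1 (0.565). Every library held a value above 0 for all 10, but none of these genes was abundant.

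Promoter sequence is shown for Nr1d1, the clock gene that rose with time, and Ciart, a further E-box repressor. Ciart had the largest change with time in wild type among the clock genes tested. Per1, which passed in no comparison, is shown as a gene that ARNTL and CLOCK switch on through E-boxes. The 300-base windows of the RefSeq table (GRCm38.p6, 250 bases before to 50 after a start) hold 9 of the 10 clock genes, all but Per2, in 13 windows. Motifs were searched on both strands: the E-box CACGTG, its variant CACGTT, the D-box (TTATGTAA or TTACGTAA, bound by DBP and its relatives), the core of the ROR element (TAGGTCA or TGGGTCA) and the cAMP response element TGACGTCA. CACGTG and CACGTT differ in the last base, so a site counts as only one of them. Below, the 250 bases before the start are printed 5′ to 3′ on the gene's strand, with every motif found in capitals.
Nr1d1, chr11:98775378-98775627, minus strand: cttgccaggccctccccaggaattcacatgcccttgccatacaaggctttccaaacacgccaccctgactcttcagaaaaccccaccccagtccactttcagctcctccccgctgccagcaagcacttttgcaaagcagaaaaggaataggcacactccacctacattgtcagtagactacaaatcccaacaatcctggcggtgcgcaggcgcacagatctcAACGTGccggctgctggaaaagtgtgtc
Per1, chr11:69098699-69098948, plus strand: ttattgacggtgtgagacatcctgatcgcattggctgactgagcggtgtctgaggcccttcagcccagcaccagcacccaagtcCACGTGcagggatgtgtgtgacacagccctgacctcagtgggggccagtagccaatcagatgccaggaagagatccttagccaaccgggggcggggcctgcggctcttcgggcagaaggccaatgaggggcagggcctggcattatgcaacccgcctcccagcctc
Ciart, chr3:95882229-95882478, minus strand: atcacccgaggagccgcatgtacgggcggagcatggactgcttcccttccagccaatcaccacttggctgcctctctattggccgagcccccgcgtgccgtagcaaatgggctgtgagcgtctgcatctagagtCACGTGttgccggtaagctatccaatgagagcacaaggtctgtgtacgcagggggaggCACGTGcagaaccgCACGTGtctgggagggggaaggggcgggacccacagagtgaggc
Arntl, chr7:113207531-113207557, plus strand, 10 bases on each side of a ROR core after a start: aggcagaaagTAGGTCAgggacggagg

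The Nr1d1 stretch holds 1 E-box variant, read as AACGTG on this strand, and the Per1 stretch 1 E-box, while the second window of Per1 holds none of the motifs. The Ciart stretch holds 3 E-boxes. Arntl, the target of the REV-ERB receptors, holds a ROR core in 1 of its 2 windows. Among the 9 clock genes with a window, the E-box was found in 2 (Cry1 and Per1), its variant in 3 (Cry1, Cry2 and Nr1d1), the D-box in 1 (Per3), the ROR core in 1 (Arntl) and the cAMP response element in 0. Of the 13 windows of these genes, 2 hold the E-box, 3 the variant, 1 the D-box, 1 the ROR core and 0 the cAMP response element. Of all 32851 windows, 7.15% hold the E-box, 4.68% the variant, 1.06% the D-box, 6.45% the ROR core and 1.79% the cAMP response element. In the 250 bases before the start alone, 6.02% of all windows hold the E-box, and the same 2 clock genes do. A gene without a match says only that these letters are not in these bases.

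The first comparison was time after LPS. Nr1d1, which encodes the REV-ERBα receptor (Entrez gene 217166, chr11:98767932-98775333 in GENCODE M21 on GRCm38), rose between 90 min and 6 h. Its level was 0.31 and 0.82 FPKM in wild type and 0.41 and 0.50 FPKM in GdX-deficient spleen at 90 min, while at 6 h wild type reached 2.31 and 2.58 FPKM and the GdX-deficient spleen 3.29 FPKM. Every library at 6 h lay above every library at 90 min. The group mean went from 0.565 ± 0.361 to 2.45 ± 0.191 FPKM in wild type (SD, n = 2 each), which is 4.33-fold, and was 7.23-fold higher at 6 h in GdX-deficient spleen. The values rest on about 17 to 45 fragments per library at 90 min and 129 to 179 at 6 h.

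As log2(FPKM + 1), a scale on which changes of weakly expressed genes come out too small, Nr1d1 rose by 1.16 in wild type (SE 0.25, limma adjusted p = 0.0220) and by 1.32 with genotype as covariate (SE 0.22, limma adjusted p = 0.0137). It was the only clock gene of 9 past the threshold of 0.05 in either comparison, where 10.7% and 5.44% of all 11378 genes passed. Without replicate 1 of wild type at 90 min, its lowest library, Nr1d1 missed the threshold in both (limma adjusted p = 0.217 and 0.0560), and it did so in wild type without a filter on low values (0.0526). In GdX-deficient spleen, with 1 library at 6 h assumed to vary like the other groups, its difference was 1.56 (95% interval 0.86 to 2.26, limma adjusted p = 0.118), and the difference between the genotypes' time changes was 0.40 (95% interval -0.50 to 1.30, limma adjusted p = 0.851).

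Nr1d1 shares 263 of its 3077 exonic bases with Thra, a thyroid hormone receptor gene on the opposite strand, and nothing states that fragments were counted by strand. Thra stood at 4.05 and 3.92 FPKM in wild type at 90 min but only 1.44 and 1.70 FPKM at 6 h, opposite to Nr1d1. In GdX-deficient spleen Thra stood at 2.96 and 3.88 FPKM at 90 min and 4.95 FPKM at 6 h. How far shared fragments enter either value was not tested.

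Nr1d2, which encodes the second REV-ERB receptor (Entrez gene 353187, chromosome 14), was the more abundant of the pair. It stood at 4.77 and 5.19 FPKM in wild type and 4.88 and 6.96 FPKM in GdX-deficient spleen at 90 min, and at 7.57 and 10.75 FPKM in wild type and 8.23 FPKM in GdX-deficient spleen at 6 h. Its libraries also did not overlap between the times. The log2 difference was 0.75 in wild type (SE 0.31, limma adjusted p = 0.154) and 0.62 with genotype as covariate (SE 0.24, limma adjusted p = 0.134), neither past the threshold. With a trend on transcript length removed, the wild-type difference passed (limma adjusted p = 0.0253). So did 21.7% of all genes, beside 10.7% in the fit reported. Within each library, the level of Nr1d1 was 0.0650 to 0.158 of that of Nr1d2 at 90 min and 0.240 to 0.400 at 6 h.

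**Figure D1:**
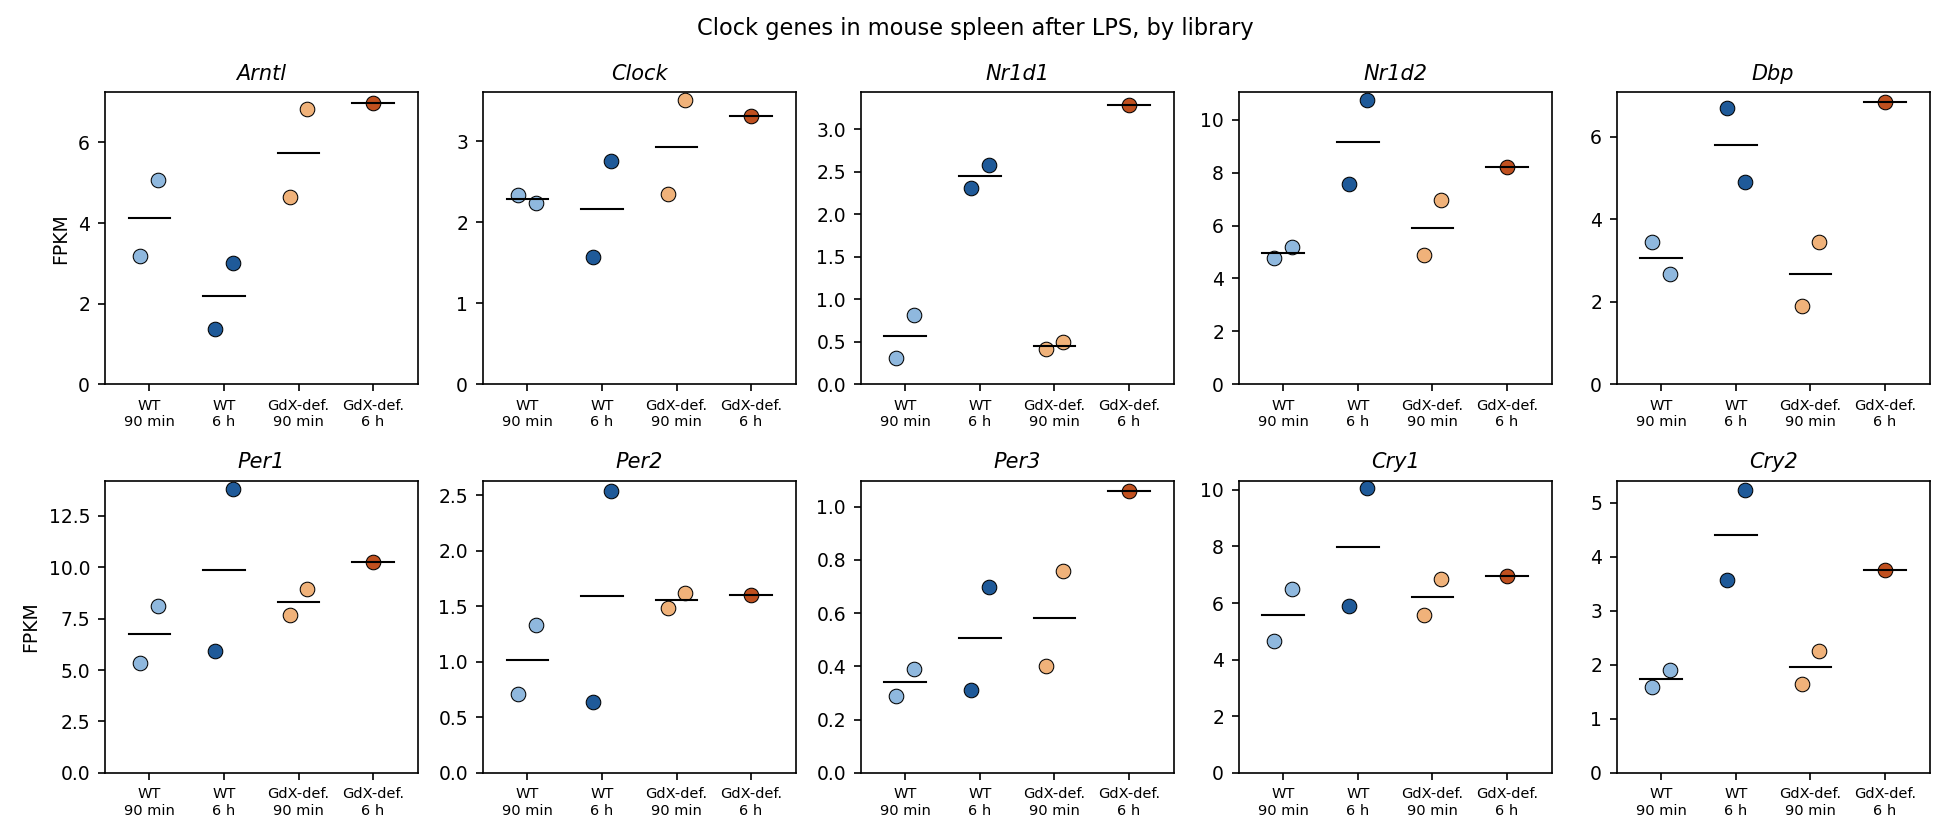
Level of the 10 clock genes in FPKM (vertical axes, linear, from 0) by group, where each point is 1 library and each bar the group mean. In the panels of Nr1d1, Nr1d2, Dbp and Cry2 all 3 libraries at 6 h lie above all 4 at 90 min, while in the panel of Per2 the wild-type pair at 6 h (0.64 and 2.54 FPKM) encloses all 4 libraries at 90 min.

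Dbp encodes a PAR bZIP transcription factor that carries clock timing to output genes (Entrez gene 13170, chr7:45705088-45710203). It stood at 3.44 and 2.67 FPKM in wild type and 1.89 and 3.44 FPKM in GdX-deficient spleen at 90 min. At 6 h it stood at 6.71 and 4.90 FPKM in wild type and 6.84 FPKM in GdX-deficient spleen. Again no library at 6 h fell within the range at 90 min, but the log2 difference of 0.90 with genotype as covariate missed the threshold (SE 0.26, limma adjusted p = 0.0644), as did 0.74 in wild type (SE 0.32, limma adjusted p = 0.168). The first of these passed with the length trend removed (limma adjusted p = 0.0464), as did 10.7% of all genes, beside 5.44% in the fit reported. Dbp shares 539 of 2993 exonic bases with Sphk2, a sphingosine kinase gene on the opposite strand. Sphk2 stood at 8.93 to 13.97 FPKM at 90 min and 21.05 to 23.79 FPKM at 6 h, so it moved the same way, and how far its fragments enter the Dbp value was not tested.

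The CRY repressors differed in how they sat between the times. Cry2 (Entrez gene 12953, chr2:92403646-92434043) stood at 1.58 and 1.91 FPKM in wild type and 1.65 and 2.26 FPKM in GdX-deficient spleen at 90 min, and at 3.57, 5.23 and 3.75 FPKM at 6 h, the last in GdX-deficient spleen. The wild-type mean was 2.52-fold and the GdX-deficient level 1.92-fold that at 90 min. Its log2 difference was 0.96 in wild type (SE 0.29, limma adjusted p = 0.0627) and 0.85 with genotype as covariate (SE 0.23, limma adjusted p = 0.0567). Both missed the threshold narrowly. Both passed it after quantile normalization (limma adjusted p = 0.0151 and 0.0379), where 12% and 7.76% of all genes passed. Both also passed after removal of a trend on transcript length (limma adjusted p = 0.0106 and 0.0302), where 21.7% and 10.7% of all genes passed. In the fit reported these shares were 10.7% and 5.44%.

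Cry1, its paralog, overlapped between the times, with 4.64 to 6.84 FPKM at 90 min and 5.88 to 10.06 FPKM at 6 h. Its log2 difference was 0.43 in wild type (95% interval -0.33 to 1.19, limma adjusted p = 0.447). It was 0.08 when replicate 2 at 6 h was left out and 0.77 when replicate 1 was. Within each library the level of Cry2 was 0.295 to 0.341 of that of Cry1 at 90 min and 0.520 to 0.607 at 6 h, so the ratio did not overlap between the times and no scaling of a library alters it. A test of the difference between the CRY genes was not run.

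The PER repressors showed no call. Per1, an early gene that many stimuli induce directly, stood at 5.34 and 8.13 FPKM in wild type and 7.67 and 8.93 FPKM in GdX-deficient spleen at 90 min, and at 5.93 and 13.80 FPKM in wild type and 10.26 FPKM in GdX-deficient spleen at 6 h. The wild-type replicates at 6 h differed 2.33-fold, more than the times did. The same pair differed 3.97-fold for Per2 (0.64 and 2.54 FPKM) and 2.26-fold for Per3 (0.31 and 0.70 FPKM). The log2 differences in wild type were 0.41 for Per1 (SE 0.40, limma adjusted p = 0.537) and 0.27 for Per2 (SE 0.36, limma adjusted p = 0.668), and both changed sign (-0.13 and -0.28) when the higher wild-type library at 6 h, replicate 2, was left out. Per3 reached its highest value, 1.06 FPKM, in GdX-deficient spleen at 6 h, where it had been 0.40 and 0.76 FPKM at 90 min.

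Longer transcripts were relatively lower in replicate 1 than in replicate 2, with a rank correlation between that difference and length (Spearman's rho) of -0.591 in wild type at 6 h, -0.446 in wild type at 90 min and -0.166 in GdX-deficient spleen at 90 min, over 11180 genes that are not independent replicates. Replicate 1 of wild type at 6 h was the lower of its pair for 9 of the 10 clock genes, all but Dbp. The median level over all tested genes was also lower in it, at 8.44 FPKM beside 11.1 FPKM in replicate 2. The PER transcripts are long, with annotated means of 4654 bases for Per1, 5833 for Per2 and 5999 for Per3. How far length sets the PER values was not tested beyond the fit with the trend removed, in which no PER gene passed.

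**Figure D2:**
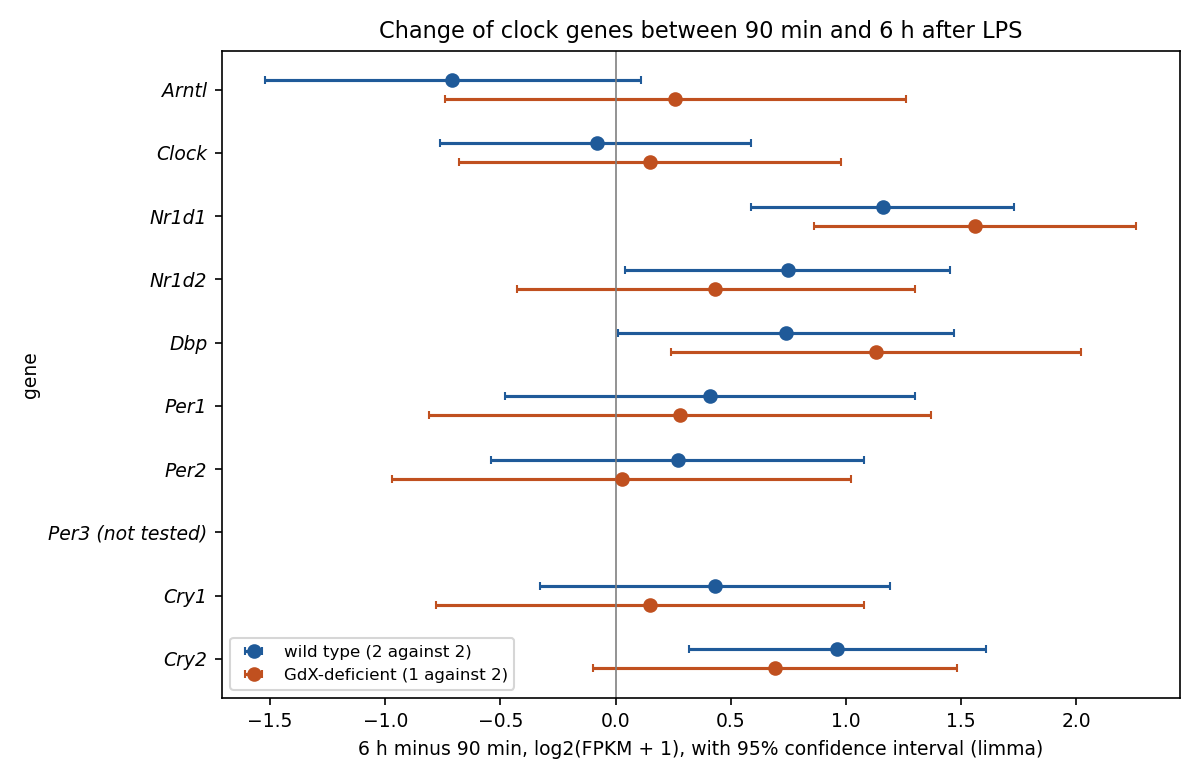
Change from 90 min to 6 h after LPS on the log2(FPKM + 1) scale (horizontal axis) for each clock gene, with limma 95% confidence intervals, in wild type (blue, 2 against 2 libraries) and GdX-deficient spleen (orange, 1 against 2). The Nr1d1 interval lies furthest from 0 in both genotypes (0.59 to 1.73 and 0.86 to 2.26), and Arntl is the gene whose points lie furthest to opposite sides of 0.

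As a group, 7 of the 9 tested clock genes had a higher level at 6 h than at 90 min in wild type, with a median log2 difference of 0.43 beside 0.05 over all genes. With genotype as covariate it was 8 of 9, with a median of 0.36 beside 0.14, and in the GdX-deficient group 9 of 9, with 0.28 beside 0.25. These medians rested on single libraries. When replicate 2 of the wild-type pair at 6 h was left out, it was 5 of 9 with a median of 0.08 beside -0.10 in wild type, and 6 of 9 with 0.12 beside 0.09 with genotype as covariate. When replicate 1 of that pair was left out, the medians were 0.83 and 0.62, and they were 0.22 and 0.21 when replicate 1 of wild type at 90 min was. In GdX-deficient spleen it was 7 of 9, with a median of 0.18 beside 0.12, without replicate 1 at 90 min. Without replicate 2 it was 9 of 9, with 0.50 beside 0.35. Quantile normalization brought the median over all genes to 0.05 with genotype as covariate and 0.02 in the GdX-deficient group and left 7 of 9 and 4 of 9 higher, so the count in GdX-deficient spleen also depended on scaling. Globin genes made up 19.2% to 30.9% of the summed FPKM at 90 min and 7.73% to 13.6% at 6 h. The part of this shift in the medians was not tested. All 3 libraries at 6 h lay above all 4 at 90 min for 4 of the 9 genes (Nr1d1, Nr1d2, Dbp and Cry2) and for 13.5% of all genes tested. They lay below for 0 of the 9 and for 5.34% of all genes. In GdX-deficient spleen limma called 0 of the 9 genes and 0% of all genes between the times, with 2 clock genes (Nr1d1 and Dbp, log2 difference 1.13) and 910 of all genes at an unadjusted p under 0.05.

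Arntl, the activator without which the loop stops (Entrez gene 11865, chr7:113207465-113314126), ran against this. In wild type it stood at 3.19 and 5.07 FPKM at 90 min and then at 1.37 and 3.02 FPKM at 6 h, so both later libraries lay below both earlier ones. In GdX-deficient spleen it stood at 4.65 and 6.84 FPKM at 90 min and 6.97 FPKM at 6 h. The log2 difference between the times was -0.71 in wild type (SE 0.36, 95% interval -1.52 to 0.11, limma adjusted p = 0.231) and 0.26 in GdX-deficient spleen (95% interval -0.74 to 1.26, limma adjusted p = 0.876). The wild-type difference rested on single libraries, at -0.33 and -1.09 without replicate 1 or 2 at 6 h and -0.98 and -0.44 without replicate 1 or 2 at 90 min, none of which passed. The pattern of a lower wild-type and a higher GdX-deficient level at 6 h, without overlap, was found in 8.31% of all genes. The difference between the genotypes' time changes was 0.97 (95% interval -0.32 to 2.26) and did not pass (limma adjusted p = 0.657). In that test 0 of the 9 clock genes and 0.0703% of all genes were called, with 0 and 1136 at an unadjusted p under 0.05.

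Clock, the partner of Arntl, barely moved in these values, with a log2 difference of -0.08 in wild type (95% interval -0.76 to 0.59, limma adjusted p = 0.889). Its libraries ran from 2.24 to 3.51 FPKM at 90 min and from 1.57 to 3.31 FPKM at 6 h. The ratio of Arntl to Clock within a library was 0.873 and 1.10 in wild type at 6 h and 1.37 to 2.26 in the other 5 libraries, so Arntl was low relative to Clock in that group alone among these libraries. The ratio of Nr1d1 to Arntl was 1.69 and 0.854 in wild type and 0.472 in GdX-deficient spleen at 6 h, against 0.0731 to 0.162 in the 4 libraries at 90 min. Both ratios were chosen after their values were seen.

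**Figure D3:**
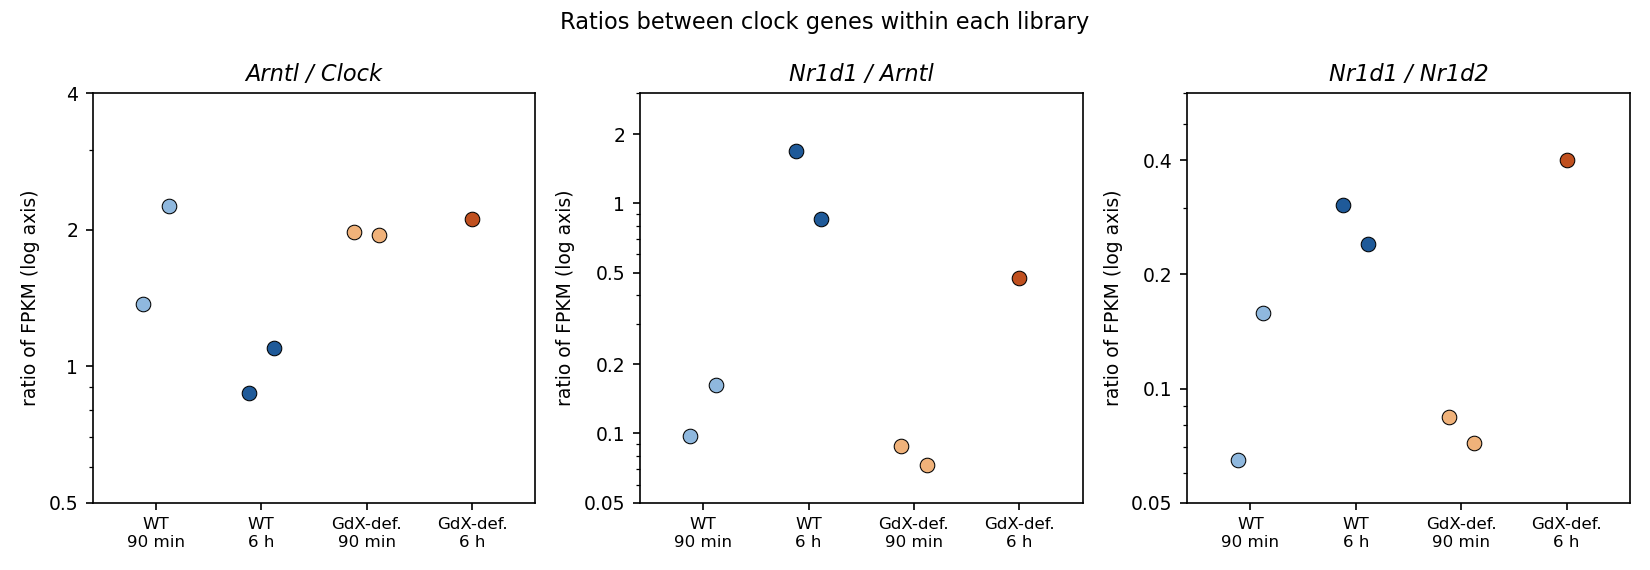
Ratios between FPKM values of clock genes within each library (vertical axes, logarithmic), where each point is 1 library. The ratio of Arntl to Clock is lowest in the wild-type pair at 6 h, and both Nr1d1 ratios are higher in all 3 libraries at 6 h than in all 4 at 90 min.

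Genotype was compared next. At 90 min, limma called 0 of the 9 clock genes as different between GdX-deficient and wild-type spleen, where 0.0176% of all genes passed. At an unadjusted p under 0.05 there were 0 clock genes and 862 of all genes. Log2 differences ran from -0.17 for Dbp to 0.40 for Arntl. Their median was 0.20 and ran from 0.01 to 0.38 when 1 library at 90 min was left out. The 95% intervals were wide, from -0.42 to 1.22 for Arntl and from -0.66 to 0.48 for Nr1d1, so changes of that size are not resolved.

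With time as covariate, 3 GdX-deficient libraries against 4 of wild type, limma again called 0 of 9, beside 0.0439% of all genes. Arntl had an unadjusted p under 0.05, as did 3071 of all genes. Its log2 difference was 0.79 (SE 0.31, limma adjusted p = 0.146). By time it was 0.40 at 90 min and 1.37 at 6 h, the second from 1 GdX-deficient library. The 90 min libraries of the genotypes overlapped for Arntl, at 4.65 and 6.84 FPKM against 3.19 and 5.07 FPKM. The other 8 genes lay between -0.02 (Dbp) and 0.34 (Clock), beside a median of 0.16 over all genes.

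At 6 h, where 1 GdX-deficient library was assumed to vary like the other groups, Arntl was 3.18-fold the wild-type mean of 2.20 ± 1.17 FPKM (SD, n = 2). The log2 difference of 1.37 (SE 0.44, 95% interval 0.37 to 2.37) missed the threshold (limma adjusted p = 0.0943). Over all 9 genes limma called 0, beside 3.96% of all genes, with 1 clock gene and 3233 of all genes at an unadjusted p under 0.05. Without wild-type replicate 2 at 6 h, the higher of its pair, the Arntl difference was 1.75, beside a median of 0.46 over all genes. Without replicate 1 it was 0.99, beside 0.18. Both settings leave 1 library against 1. After quantile normalization the Arntl difference was 0.79 (limma adjusted p = 0.151). The GdX-deficient library lay above both wild-type libraries for Arntl, Clock, Nr1d1 and Dbp, and for Per3, which was not tested. The same holds for 54.9% of all genes, so 4 of 9 is no more than the share over all genes. Of the 9 tested genes, 6 had a higher level than the wild-type mean (median log2 difference 0.15 beside 0.32 over all genes), but after quantile normalization only Arntl did (median -0.29 beside -0.02). It was 4 of 9 (median -0.35 beside 0.18) without wild-type replicate 1 at 6 h and 9 of 9 (0.37 beside 0.46) without replicate 2.

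The wild-type pair at 6 h had the lowest Arntl and the lowest sums of the B-cell markers (362.5 and 400 FPKM, with 1640.4 FPKM in GdX-deficient spleen at that time) and T-cell markers (116.1 and 90.6 against 203.7 FPKM). Among the other 5 libraries, the GdX-deficient ones with the highest B-cell sums (1886.3 and 1640.4 FPKM) had the highest Arntl (6.84 and 6.97 FPKM). The rest did not keep that order. At 90 min, B-cell sums were 1354.6 and 1222 FPKM in wild type and 1067.7 FPKM in GdX-deficient replicate 1, with Arntl at 3.19, 5.07 and 4.65 FPKM. The highest T-cell sum (264.6 FPKM) was in replicate 1 of wild type at 90 min, with Arntl at 3.19 FPKM. Red pulp macrophage markers were also lower in the wild-type pair at 6 h, at 140 and 148.5 FPKM against 351.5 FPKM. The same holds for red cell precursors (65.9 and 90.7 against 280.6 FPKM). Neutrophil markers ran from 631.5 to 4173.2 FPKM and stroma markers from 16.8 to 87.3 FPKM over the 7 libraries. All 5 markers of each of the 6 lists were above 0 in every library, and their part in the Arntl values was not tested.

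The rest of the clock network was read from a list of 21 genes, of which 12 had a mean of at least 1 FPKM. In wild type 2 rose and 1 fell between 90 min and 6 h, beside 10.7% of all genes called. In the fit with genotype as covariate 1 rose and 1 fell, beside 5.44% of all genes. The median log2 difference of the 12 was -0.03 in wild type, beside 0.05 over all genes. The activator paralogs Npas2 and Arntl2 did not reach the mean of 1 FPKM.

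Ciart, which encodes the repressor CHRONO that binds ARNTL and CLOCK at E-boxes (Entrez gene 229599, chr3:95878503-95882251), had the largest change with time in wild type among the clock genes tested. It stood at 2.53 and 2.82 FPKM in wild type and 2.43 and 1.69 FPKM in GdX-deficient spleen at 90 min. At 6 h it stood at 24.03 and 25.16 FPKM in wild type but at 2.10 FPKM in GdX-deficient spleen. Only the wild-type pair at 6 h stands apart, at 9.19-fold the wild-type mean at 90 min. The log2 difference was 2.80 in wild type (SE 0.29, limma adjusted p = 0.00131), 1.69 with genotype as covariate (SE 0.47, limma adjusted p = 0.0592, not past the threshold) and 0.03 in GdX-deficient spleen (95% interval -0.76 to 0.82, limma adjusted p = 0.982).

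Ciart was lower in the GdX-deficient library at 6 h than in wild type by a log2 difference of -3.05 (SE 0.35, limma adjusted p = 0.00664), with about 58 fragments against 684 and 712. This was the 1 call among the 12 genes in that comparison, beside 3.96% of all genes, and it rests on the same wild-type pair as the change with time. The difference between the genotypes' time changes was -2.77 (SE 0.46) and did not pass (limma adjusted p = 0.0735). With 1 wild-type library at 6 h left out, each genotype has 1 library at that time, and no spread at 6 h enters the fit. The difference passed with the length trend removed (limma adjusted p = 0.0369), where 0.403% of all genes passed beside 0.0703% in the fit reported. Over the other alternatives but the replicate block its adjusted p lay between 0.0846 and 0.241.

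Tef, a PAR bZIP factor of the same family as Dbp (Entrez gene 21685, chromosome 15), rose. It stood at 4.21 and 4.25 FPKM in wild type and 3.97 and 6.77 FPKM in GdX-deficient spleen at 90 min, and at 9.85, 12.54 and 9.68 FPKM at 6 h, the last in GdX-deficient spleen. The libraries of the times did not overlap. Its log2 difference was 1.21 in wild type (SE 0.32, limma adjusted p = 0.0439) and 1.04 with genotype as covariate (SE 0.25, limma adjusted p = 0.0424). The call sat close to the threshold and was lost in wild type without a filter on low values (limma adjusted p = 0.0937) and without replicate 1 (0.223) or 2 (0.215) at 90 min or replicate 2 at 6 h (0.0773). The call with genotype as covariate was lost without a filter (limma adjusted p = 0.102), without any 1 of the 4 wild-type libraries (0.0591 to 0.172) and without GdX-deficient replicate 1 at 90 min (0.0576).

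Nfil3 encodes the bZIP repressor that competes with DBP and TEF for D-boxes. It stood at 27.43 and 39.18 FPKM in wild type and 33.18 and 15.23 FPKM in GdX-deficient spleen at 90 min, and at 16.54, 30.44 and 7.08 FPKM at 6 h, the last in GdX-deficient spleen. Neither its time difference in wild type (log2 difference -0.53, limma adjusted p = 0.447) nor the difference between the genotypes at 6 h (-1.54, limma adjusted p = 0.0985) passed. Nfil3 was picked with its values known, since it did not pass in any comparison.

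Noct, which encodes the clock-controlled phosphatase nocturnin (Entrez gene 12457, chromosome 3), fell. It stood at 25.59 and 26.42 FPKM in wild type and 23.54 and 17.59 FPKM in GdX-deficient spleen at 90 min, and at 5.77, 6.79 and 5.42 FPKM at 6 h, the last in GdX-deficient spleen. The level at 90 min was 4.14-fold that at 6 h in wild type and 3.79-fold in GdX-deficient spleen, and no libraries overlapped. The log2 difference was -1.89 in wild type (SE 0.28, limma adjusted p = 0.00631) and -1.83 with genotype as covariate (SE 0.22, limma adjusted p = 0.00341).

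**Figure D4:**
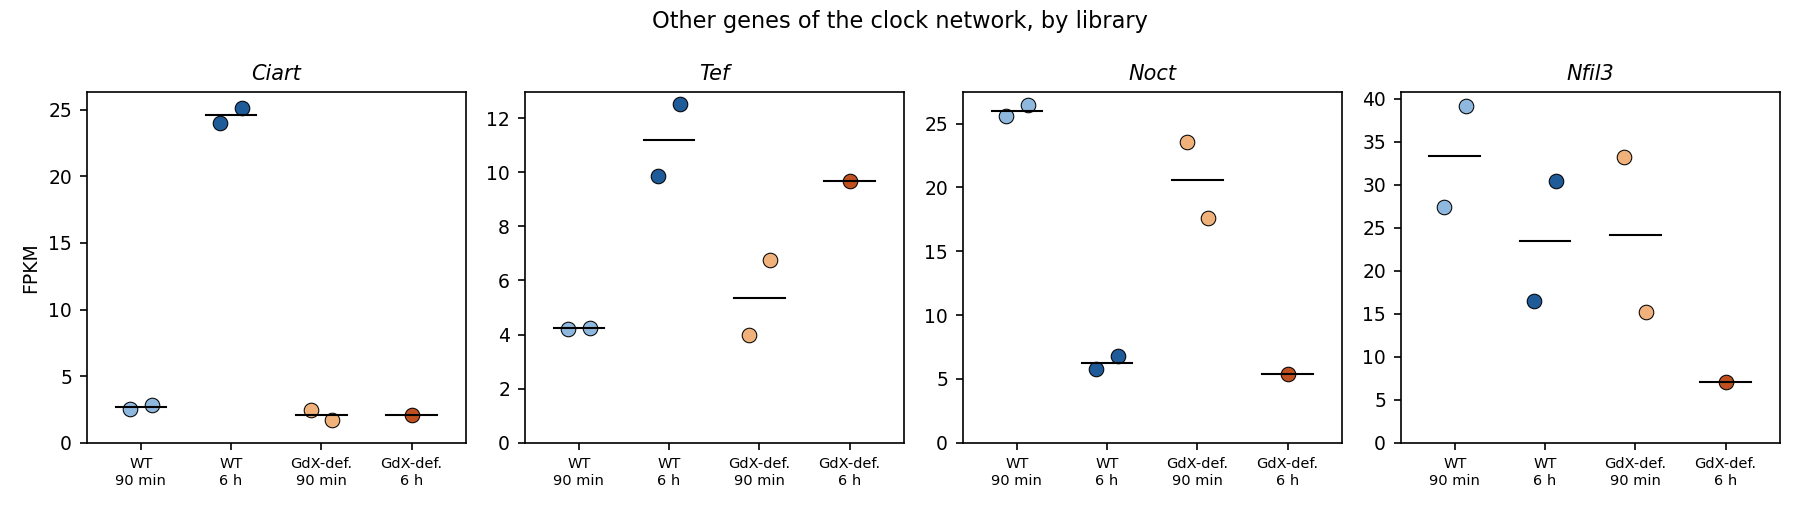
Level of Ciart, Tef, Noct and Nfil3 in FPKM (vertical axes, linear, from 0) by group, where each point is 1 library and each bar the group mean. Ciart is high in the wild-type pair at 6 h (24.03 and 25.16 FPKM), Tef is higher and Noct lower in all 3 libraries at 6 h, and Nfil3 overlaps between the times.

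The kinases and ubiquitin ligase adaptors that act on PER and CRY proteins, 7 tested genes, gave no call in any comparison. With 0% to 10.7% of all genes called, depending on the comparison, few or no calls among 7 genes say little about them. Glucocorticoids induce Per1 and a known set of other genes, of which 8 of 9 listed were tested. In wild type 1 of them rose between the times, beside 10.7% of all genes called, and 3 of the 8 lay lower at 6 h without passing (Errfi1, Sgk1 and Dusp1, log2 differences -1.10, -0.59 and -0.39). The gene that rose was Pdk4, from 0.910 ± 0.467 to 5.40 ± 1.63 FPKM (SD, n = 2 each; log2 difference 1.74, limma adjusted p = 0.0112). Pdk4 encodes a kinase that holds back pyruvate oxidation. With genotype as covariate 2 rose, beside 5.44% of all genes called, Pdk4 (limma adjusted p = 0.00614) and the mTOR inhibitor gene Ddit4 (limma adjusted p = 0.0397). The median log2 difference of the list was 0.48 in wild type, beside 0.05 over all genes.

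The genes most like a clock gene were sought by the root mean square difference between log2(FPKM + 1) profiles over the 7 libraries, each centred on its own mean. For Arntl, whose own profile has a root mean square of 0.57, they were Ids (0.07), Nfatc1 (0.07) and Zer1 (0.08). For Per1 (0.38) they were Zfp106 (0.06), Ddx20 (0.07) and Eif2ak4 (0.08), and for Dbp (0.50) they were Msrb1 (0.08), Tsen34 (0.08) and Fdxr (0.13). With 7 libraries and 11378 genes some profiles are alike whatever the genes do, so this is a description of these libraries.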

How the data were processed

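The authors deposited FPKM values, with a column for each library, per the file headers. HISAT2 2.0.4, HISAT, Bowtie2, RSEM and the build GRCm38.p5 are named in the submitters' processing notes, without their roles. Whether fragments were counted by strand is not given in the sources used here. Libraries were sequenced on a BGISEQ-500, per the labels' protocols.

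All 11378 genes that averaged at least 1 FPKM over the libraries were taken to log2(FPKM + 1) and fitted with limma 3.58.1 in R 4.3.3 (empirical Bayes with a trend, two-sided, Benjamini-Hochberg adjustment over all genes, threshold 0.05). Contrasts came from a fit of the 4 groups, and the comparisons with a covariate from an additive fit. The planned branch for counts could not be used with FPKM. The fit was tested on simulated data. Depth was estimated from 122 to 147 low genes per library with 1 transcript of known length, and fragments behind a value from it and the mean annotated transcript length, so both are approximate.

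The members, lists and rules were chosen with earlier results of these data known. All clock members were named whatever their values, other clock genes where they passed the threshold, and the 3 genes with the nearest profile for Arntl, Per1 and Dbp. Nfil3, Npas2, Arntl2, Pdk4, Ddit4, Errfi1, Sgk1, Dusp1, Thra and Sphk2 were named after their values were seen. Marker lists of 5 genes each covered red cell precursors, stroma, neutrophils, red pulp macrophages and B and T cells. Gene positions are from GENCODE M21. Alternatives were another pseudocount (0.1), filters, quantile normalization, a replicate block, a length trend removed (lowess, span 0.3), fewer libraries and leaving out each library.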

Additional observations from a re-analysis of the deposited data

How the results depend on the processing

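Over the 9 tested clock genes, the 7 comparisons and all alternatives, 82 of 768 log2 differences changed sign, none of them over 0.47 in size and 0 called on either side. With a mean of at least 5 FPKM only 3 of the clock genes were tested. In wild type between the times, 1 gene was called in the fit reported, 0 without a filter on low values or with a mean of at least 5 FPKM (which leaves Nr1d1 out), 2 after quantile normalization, 3 with the length trend removed (Nr1d1, Cry2 and Nr1d2), and 0 to 2 when 1 library was left out. With genotype as covariate 1 was called, 0 with a mean of at least 5 FPKM, 2 after quantile normalization, 3 with the length trend removed (Nr1d1, Cry2 and Dbp), and 0 to 1 when 1 library was left out. For genotype at 6 h and for time in GdX-deficient spleen, 0 were called, and 0 to 1 when 1 library was left out. These were Arntl when the wild-type pair at 6 h lost replicate 2, which leaves 1 library against 1, and Nr1d1 when that pair lost either library. The counts for genotype at 90 min, genotype with time as covariate and the difference between time changes were 0 under every alternative run.

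Clock changed sign in wild type to 0.07 after quantile normalization and 0.00 with the length trend removed, and ran from -0.35 to 0.19 when 1 library was left out. With genotype as covariate it went from 0.01 to -0.01 and -0.04 under these settings, and ran from -0.10 to 0.17. Per1 in wild type ran from -0.13 to 0.96 and Per2 from -0.28 to 0.83, and Per2 with genotype as covariate from -0.13 to 0.43. The Nr1d1 difference between time changes was -0.16 after quantile normalization.

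The replicate number as a block called 2 clock genes in wild type between the times (Nr1d1 and Cry2), 2 with genotype as covariate (the same genes) and 1 for genotype at 6 h (Arntl, limma adjusted p = 0.00828). It called 2345, 765 and 3383 of all genes there, against 1218, 619 and 450 without it, and with it the Ciart difference between time changes passed (limma adjusted p = 0.0382). Nothing in the labels says that a number marks a shared animal or day. Replicate differences correlated across genes with Pearson's r of 0.768 between the wild-type groups, -0.12 between the genotypes at 90 min and 0.0797 between wild type at 6 h and GdX-deficient spleen at 90 min. The numbers were therefore not taken to pair the samples. With the numbers crossed between the genotypes at 90 min, a setting chosen after seeing the data, 0 clock genes and 2 of all genes were called.

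Counts over all genes moved more. Between the times in wild type they fell to 450 and 550 when replicate 1 or 2 of the 90 min group was left out and 635 with no filter, and reached 2423 with the length trend removed. With genotype as covariate the lowest was 104 (no filter) and the highest 1204, and leaving out any wild-type library (154 to 343) or GdX-deficient replicate 2 at 90 min (377) lowered the count. Genotype at 90 min gave 0 to 183, with 181 when only the libraries compared were fitted. Genotype with time as covariate gave 2 to 1674, the last with GdX-deficient replicate 1 at 90 min left out. Genotype at 6 h gave 90 (no filter) to 3383, time in GdX-deficient spleen 0 to 236 and the difference between time changes 0 to 238, the last with wild-type replicate 2 at 6 h left out. The cause was not tested. Among the 10 clock genes, depth limits Nr1d1 and Per3 most: at 90 min they rest on about 17 to 45 and 35 to 86 fragments per library.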
